A study of Homo sapiens with 6 samples.

Results

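The genes described here are 9 genes of the squamous epithelial lineage: the transcription factors TP63 and SOX2, the epithelial proteins TRIM29, SERPINB5 and SFN, the cornified envelope proteins IVL, SPRR1A and SPRR1B, and the basement membrane protein LAD1. They were chosen by name, with earlier results of these data known. Every probe that the platform annotation assigns to them was taken on every array. Of 20046 named genes on the array, 8 of the 9 had a listed probe, with 14 of 47323 probes in all: 5 for LAD1, 2 each for SOX2 and TRIM29, and 1 for each of the others. The annotation used here lists no probe for TP63, so its expression is not analysed here.

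RNA was measured on Illumina HumanHT-12 v4 beadchips in 2 human lung cancer lines, HCC95, derived from a squamous cell carcinoma, and H460, derived from a large cell carcinoma. HCC95 cells carried either the control vector pSin-E2F-GFP-puro or the vector pSIn-E2F-LZTFL1-ires-GFP-puro, which also encodes LZTFL1, a leucine zipper protein that regulates traffic to the cilium. Each kind of HCC95 cell was left without treatment or given TGFβ, with no dose or time stated, and H460 cells carried the same vectors without treatment. There was 1 array for each of the 6 groups, all cells carried GFP, and the labels do not say whether a line was a clone or a pool.

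In stratified epithelia, p63, the product of TP63, maintains basal progenitor cells and activates genes of the squamous programme, and SOX2 works with it in squamous cancers of the lung and oesophagus. Both genes lie on the long arm of chromosome 3, a region often gained in squamous lung cancer. As basal cells leave the basement membrane, they make involucrin (IVL) and small proline-rich proteins (SPRR), which transglutaminases join into the cornified envelope beneath the cell surface.

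The starts of 5 of these genes hold a match to a short pattern whose middle base is free. Of them, 4 are shown because the results below turn on SERPINB5, SFN and the SPRR1 pair. The 250 bases before the transcription start are from RefSeq on GRCh38.p14, all on the plus strand: chr18:63476708-63476957 for SERPINB5, chr1:26862899-26863148 for SFN, chr1:152983831-152984080 for SPRR1A and chr1:153030953-153031202 for SPRR1B. Capitals mark matches to the TATA box TATAAA and to TGANTCA, a loose form of the AP-1 motif with any middle base (N). As a pattern, TGANTCA reads the same on both strands. Its matches read TGAATCA in SERPINB5, TGATTCA in SFN, TGAGTCA in SPRR1A, and TGAGTCA and TGAATCA in SPRR1B.
SERPINB5: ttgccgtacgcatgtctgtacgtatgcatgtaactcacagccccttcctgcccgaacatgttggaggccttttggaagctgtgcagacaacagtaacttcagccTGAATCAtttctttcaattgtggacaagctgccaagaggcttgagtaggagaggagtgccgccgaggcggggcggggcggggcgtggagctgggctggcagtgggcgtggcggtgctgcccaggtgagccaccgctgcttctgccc
SFN: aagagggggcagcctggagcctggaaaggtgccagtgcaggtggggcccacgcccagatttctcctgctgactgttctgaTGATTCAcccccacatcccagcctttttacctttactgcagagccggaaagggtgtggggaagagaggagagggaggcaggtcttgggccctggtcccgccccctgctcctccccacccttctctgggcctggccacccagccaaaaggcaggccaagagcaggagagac
SPRR1A: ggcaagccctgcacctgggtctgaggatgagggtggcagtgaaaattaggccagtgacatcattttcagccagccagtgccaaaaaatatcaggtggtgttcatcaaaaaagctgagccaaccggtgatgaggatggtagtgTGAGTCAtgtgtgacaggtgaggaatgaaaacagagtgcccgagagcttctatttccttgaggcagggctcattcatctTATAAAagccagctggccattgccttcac
SPRR1B: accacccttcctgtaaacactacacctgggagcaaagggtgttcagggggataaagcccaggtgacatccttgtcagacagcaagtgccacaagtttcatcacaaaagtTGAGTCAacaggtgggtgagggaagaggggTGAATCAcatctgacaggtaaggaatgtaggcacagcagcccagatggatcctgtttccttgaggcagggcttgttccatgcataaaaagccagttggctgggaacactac

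RefSeq promoters were listed for 8 of the 9 genes, all but TRIM29. The loose AP-1 pattern TGANTCA stood in 5 of the 8: at -146 from the start in SERPINB5, -170 in SFN, -123 in IVL, -108 in SPRR1A, and at both -141 and -111 in SPRR1B. Of 35116 promoters of the same length, 6.57% held it. The 3 promoters without it were those of TP63, SOX2 and LAD1. The TATA box stood in IVL at -30 and in SPRR1A at -29, against 10.7% of all promoters. A SOX motif, ATTGTT, was found in none of the 8 and in 8.98% of all. The CCAAT box CCAAT, searched on both strands like the others, was in TP63 and SOX2 only, against 32% of all, and the GC box GGGCGG in SOX2, SERPINB5, SFN and LAD1, against 42.6%. SPRR1A and SPRR1B are close copies in the same gene cluster: their windows aligned with 172 of 232 aligned bases identical (74.1%) and 36 bases in gaps. A match is a description of the letters only.

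Median signals of the 6 arrays lay between 104 and 125, and 14136 to 16423 probes were detected, fewest on the arrays labelled TGFβ. HCC95 carried squamous markers: 5 of 6 listed squamous genes had a probe, all 5 were detected on every HCC95 array, and their summed log2 level was 50.8 to 55.9. In H460 the sum was 23.8 to 24.1, DSC3 alone was detected on both arrays, and KRT5, KRT14, DSG3 and PKP1 were not detected. The simple epithelial genes KRT8 and KRT18 were detected in both lines and EPCAM and CDH1 in HCC95 alone (summed level 38.7 to 39.8 against 26.6). No alveolar or adenocarcinoma marker was detected in either line, and of the neuroendocrine markers CHGA alone, on both H460 arrays (6.78 and 7.11). Of 7 markers of stroma, vessels and immune cells, CD68 was detected on every array and VWF on every HCC95 array, COL1A1 and COL1A2 on 2 HCC95 arrays each, and DCN, PECAM1 and PTPRC on none. The summed level of these 7 was 39.9 to 42.6 in HCC95 and 36.5 to 37.7 in H460, and VWF (1.60) and CD68 (0.80) were higher on the arrays labelled TGFβ (limma adjusted p = 1.60e-05 and 0.00128). The part of these other markers in the results was not tested.

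The probes that bear on the vector and TGFβ labels did not follow them. The listed LZTFL1 probe read 5.75 in HCC95 with GFP and 5.07 with LZTFL1, where it was not detected, and 6.36 and 6.39 in H460, so it was not higher on the HCC95 arrays that should carry LZTFL1. Its position relative to the introduced sequence was not examined. PMEPA1, which TGFβ induces in many cells, read 9.38 and 9.53 on the untreated HCC95 arrays (GFP, LZTFL1) and 7.16 and 6.21 on those labelled TGFβ, lower where it is usually higher. Arrays are therefore named below by what their labels say. Each value is a normalized log2 intensity, which allows comparison of a probe between arrays and not between probes, and a probe counts as detected at a detection p under 0.01.

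SOX2, the stem cell and squamous lineage factor, separated the lines. Its brighter probe read 10.69 in HCC95 with GFP, 10.93 with LZTFL1, 10.40 with GFP and TGFβ, and 10.55 with LZTFL1 and TGFβ. In H460 it read 5.47 with GFP, where it was not detected, and 5.90 with LZTFL1. The other SOX2 probe was detected on every array and read 10.47, 10.57, 10.17 and 10.00 on the HCC95 arrays in the same order, then 5.63 and 5.86 in H460. By both probes the lines did not overlap, and in H460 SOX2 lay close to the lowest detected level of each array, 5.59 with GFP and 5.38 with LZTFL1.

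TRIM29, a tripartite motif protein that binds p53 and is used as a marker of squamous lung cancer, had 2 probes that gave the same order of lines. The brighter read 8.93, 8.55, 8.81 and 8.51 on the HCC95 arrays, in the order GFP, LZTFL1, GFP with TGFβ, LZTFL1 with TGFβ, and was not detected in H460 (4.47 and 4.41). The other read 8.02, 7.71, 8.11 and 8.06 and was not detected in H460 (4.66 and 4.74).

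SERPINB5, or maspin, a serpin of epithelial cells that does not inhibit proteases, was detected in both lines. It read 11.54 in HCC95 with GFP, 10.89 with LZTFL1, 10.93 with GFP and TGFβ, and 10.47 with LZTFL1 and TGFβ. In H460 it read 9.24 and 9.33. The HCC95 array with neither LZTFL1 nor TGFβ was the highest and the one with both the lowest of its line. The authors' processed intensities, on a linear scale, kept that order at 2948, 1878, 1929 and 1395, with 584 and 621 in H460.

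SFN, or 14-3-3σ, an epithelial adaptor that p53 induces and that holds cells before mitosis, read 11.82, 11.04, 11.38 and 11.46 on the HCC95 arrays in the order used for TRIM29. It read 8.49 and 8.39 in H460. The lowest HCC95 value was that of LZTFL1 without TGFβ. The processed intensities were 3589, 2085, 2639 and 2793 in HCC95 and 340 and 317 in H460.

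Of the cornified envelope genes, SPRR1A was detected on all arrays. It read 10.60, 10.14, 10.64 and 10.83 in HCC95 and 6.97 and 6.46 in H460, and its processed intensities were 1531, 1108, 1575 and 1790 in HCC95 and 108 and 71.2 in H460. SPRR1B read 6.85, 6.94, 7.16 and 7.22 in HCC95 and was not detected in H460 (4.95 and 4.78). Because SPRR1A and SPRR1B are close copies and the probe sequences were not examined, some signal of either may come from the other. IVL, the envelope's scaffold protein, was not detected on any array: it read 4.52 to 5.14, with detection p from 0.061 to 0.670, and has no fold or test here.

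LAD1, or ladinin, a protein of the anchoring filaments that tie epithelium to basement membrane, had the largest gap between lines of the 8 genes with a probe. Its bright probe read 12.80, 12.85, 12.51 and 12.49 in HCC95 and was not detected in H460 (4.46 and 4.57). Its probes disagreed. ILMN_1701581 was detected on the untreated HCC95 arrays alone, at 5.59 and 5.58, and the other 3 on none, so LAD1 rests on ILMN_1782389.

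**Figure D1:**
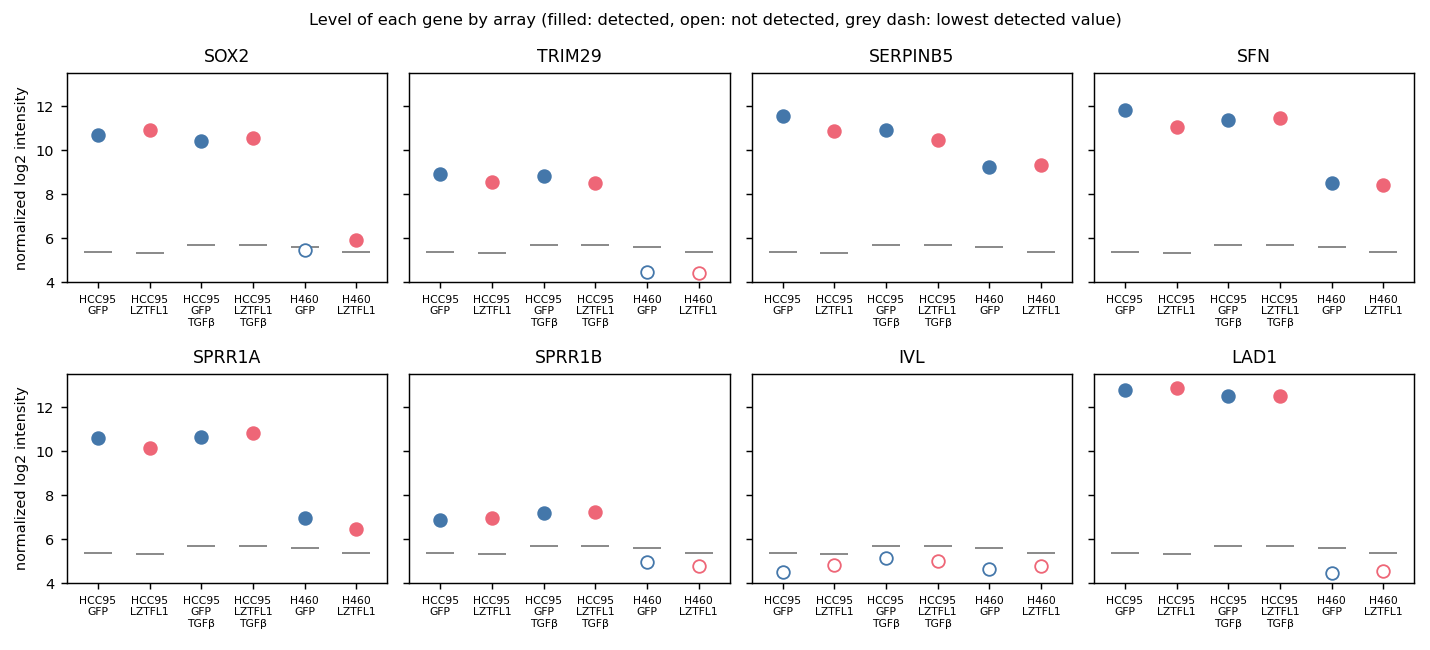
Normalized log2 intensity of each measured gene (vertical axis, log2) on each of the 6 arrays, 1 point an array and 1 panel a gene, with open points for values that were not detected and a grey dash at the lowest detected level. In every panel except IVL the 4 HCC95 arrays lie above both H460 arrays, and the gap is widest for LAD1 (12.49 to 12.85 against 4.46 and 4.57). TRIM29, SPRR1B and LAD1 were not detected in H460, so their panels had to separate the lines. Over the untreated arrays, 28.1% of all 13803 genes tested were lower in H460.

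**Figure D2:**
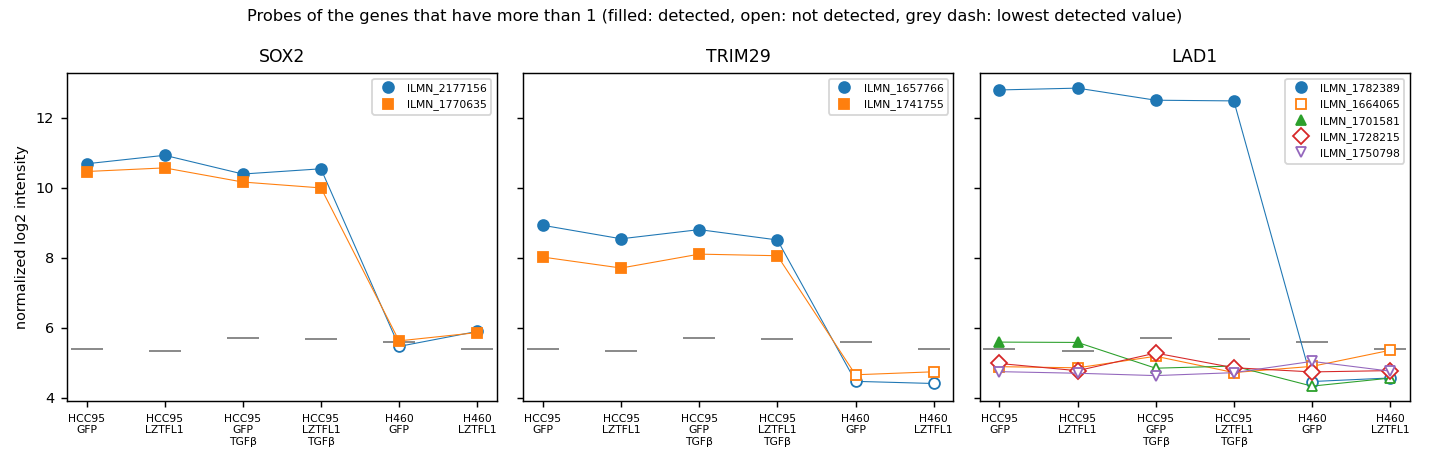
Normalized log2 intensity of every probe of the genes with more than 1 listed probe, by array (vertical axis, log2), with open points for values that were not detected and a grey dash at the lowest detected level. Both probes of SOX2 and both of TRIM29 separate the lines, and of the 5 LAD1 probes 1 lies above 12 in HCC95 while the other 4 stay below 6.

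The first comparison asked how the lines differed, over the 4 untreated arrays, with the vector in the model. All 7 detected genes were lower in H460: SOX2, TRIM29, SERPINB5, SFN, SPRR1A, SPRR1B and LAD1. The lines differed in much else: 28.1% of all 13803 genes tested were lower in H460, 25.1% were higher, and 53.2% passed in either direction. TRIM29, SPRR1B and LAD1 entered the test only through HCC95, so they had to differ, and the 7 of 7 is no support for a pattern. In RNA from bulk cultures, fewer cells that express a gene and less of its RNA per cell cannot be told apart.

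The 3 genes detected on all 4 untreated arrays give measured folds. SPRR1A was 12.6-fold lower in H460 (log2 difference -3.66, SE 0.173; limma adjusted p = 2.95e-09). SFN was 7.96-fold lower (log2 difference -2.99, SE 0.181; limma adjusted p = 3.16e-08). SERPINB5 was 3.82-fold lower (log2 difference -1.94, SE 0.182; limma adjusted p = 1.86e-06), the smallest of the 3, and was still plainly expressed in H460. Of 10356 genes detected on all 4 arrays, 25.5% were lower in H460.

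For a gene not detected on either H460 array, the fold is a lower bound: the mean of the HCC95 arrays against, on each H460 array, the higher of the measured value and the lowest detected level of that array. The p-values of LAD1, TRIM29 and SPRR1B are those of the fit and, given how these genes entered it, are not evidence of a difference. LAD1 was at least 162-fold lower in H460 (means 12.83 and 4.51; limma adjusted p = 2.48e-12). TRIM29 was at least 9.52-fold lower (means 8.74 and 4.44; limma adjusted p = 5.51e-09) and at least 5.20-fold lower by its other probe. SPRR1B was at least 2.65-fold lower (means 6.89 and 4.87; limma adjusted p = 1.42e-05). SOX2 was 27.4-fold lower by the probe detected on all arrays (log2 difference -4.78; limma adjusted p = 3.39e-11 in a fit over 16965 probes), and -5.13 on the log2 scale by its brighter probe, missed on 1 H460 array. The error in this fit is how far the vector's effect differed between lines, so these p-values do not measure the spread between cultures.

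The second comparison asked how the arrays labelled LZTFL1 differed from those labelled GFP in HCC95, over its 4 arrays with the TGFβ label as a term. SERPINB5 was lower with LZTFL1 and was the only one of the 7 genes to pass; 7.63% of 12735 genes passed in either direction, 3.74% as higher and 3.89% as lower. The loss was 1.47-fold (log2 difference -0.55, SE 0.122; limma adjusted p = 0.00495). The pairs of arrays gave -0.65 without TGFβ and -0.46 with it, where different probes of the same gene differ with an SD of 0.263 and 0.270. Squamous markers moved with it: their summed log2 level was 55.9 with GFP and 51.9 with LZTFL1, and 54.3 and 50.8 with TGFβ. Of the 5, KRT14 (-1.60), DSG3 (-1.04) and DSC3 (-0.82) were lower with LZTFL1, PKP1 (-0.30) and KRT5 (0.01) did not pass, and the simple keratin KRT8 was higher (0.76). The part of these markers in the SERPINB5 difference was not tested. SERPINB5 no longer passed with arrays scaled to a common median, without the mean-variance trend or without the label as a term (limma adjusted p from 0.00103 to 0.446 over the settings tried).

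The other 6 genes did not pass. SFN differed by -0.35 (SE 0.142; limma adjusted p = 0.137), from -0.78 without TGFβ and 0.08 with it, so a single pair carried the difference. TRIM29 differed by -0.34 (SE 0.153; limma adjusted p = 0.185), with -0.39 and -0.30 in the pairs by its brighter probe and -0.31 and -0.05 by the other. SOX2 stood at 0.20 (SE 0.125), and its other probe at -0.03 (SE 0.133), so the probes did not settle a direction. The values of SPRR1A (-0.14), SPRR1B (0.08) and LAD1 (0.02) were each within their SE. Of the 7, 3 were under 0.05 before adjustment, against 22% of all genes tested. None of the 7 differed by 2-fold in either pair, where 0.425% of all genes were that much higher and 0.6% lower without TGFβ, and 0.418% and 0.844% with it.

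In the same fit, the arrays labelled TGFβ were compared with the untreated ones. SERPINB5 was again the only gene of the 7 to pass and was again lower, by 1.43-fold (log2 difference -0.52, SE 0.122; limma adjusted p = 0.00913), with -0.61 under GFP and -0.42 under LZTFL1. Over all genes 6.17% passed in either direction, 3.42% as higher and 2.76% as lower. The vector and the label thus each went with a lower SERPINB5 in the presence of the other, and the array with both was 1.07 below the array with neither on the log2 scale. DSC3 (-0.62) and DSG3 (-0.55) were also lower for the label, while KRT14 (-0.21), PKP1 (-0.08) and KRT5 (0.06) did not pass. The call of SERPINB5 was lost with averaged probes, without the trend and without the vector term (limma adjusted p from 0.00344 to 0.625 over the settings tried).

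LAD1 differed by -0.33 (SE 0.105; limma adjusted p = 0.0588), with -0.29 and -0.36 in the pairs, and missed the threshold. SOX2 differed by -0.34 (SE 0.125; limma adjusted p = 0.108), and its other probe by -0.44 (SE 0.133; limma adjusted p = 0.0616 over all probes). Both SOX2 probes were below 0 in both pairs of arrays, from -0.29 to -0.57, and probes on the same arrays are not replicates. SPRR1A differed by 0.36 (SE 0.140; limma adjusted p = 0.129), made up of 0.04 under GFP and 0.68 under LZTFL1. SPRR1B differed by 0.30 (SE 0.194), with 0.32 and 0.28 in the pairs. TRIM29 and SFN stood at -0.08 and -0.01. None of the 7 differed by 2-fold in either pair, where 0.65% of all genes were that much higher and 0.239% lower under GFP, and 0.959% and 0.552% under LZTFL1.

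The SFN value near 0 averaged opposite pairs, -0.44 under GFP and 0.42 under LZTFL1, against a spread between probes of 0.245 and 0.279. The gap of 0.86 between them was large beside other genes: over 10800 genes detected on all 4 HCC95 arrays this departure from additivity had an SD of 0.364, and 2.66% of genes had one at least as large. That of SPRR1A was 0.64. Over the HCC95 arrays alone the departure leaves no error to test it with. A fit over all 6 arrays, chosen after the data were seen, let the H460 arrays share the vector effect of untreated HCC95, which left 1 residual degree of freedom. There the departure was 0.52 for SFN (SE 0.305; limma adjusted p = 0.998) and 0.67 for SPRR1A (SE 0.283; limma adjusted p = 0.998, unadjusted p = 0.0354). It passed for 0 of the 7 genes and for 0% of 14101 genes (limma; 1 of the 7 and 665 of all under 0.05 before adjustment).

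The third comparison asked whether the arrays labelled LZTFL1 and GFP differed alike in H460. None of the 4 genes detected on at least 1 H460 array differed by 2-fold or more between them. Of 13589 genes, 0.0809% were higher with LZTFL1 by that much and 0.0736% lower. SERPINB5 differed by 0.09 and SFN by -0.09, within the probe spread of 0.209. SPRR1A differed by -0.51 and the SOX2 probe detected on both arrays by 0.24, both beyond that spread. That SOX2 probe read 5.63 and 5.86, near the lowest detected levels of 5.59 and 5.38. The SPRR1A difference was -0.27 without background correction. TRIM29, SPRR1B and LAD1 were not detected on either array.

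A vector by line term over the 6 arrays tested the difference itself. It passed for 0 of the 7 genes (limma; 1 of the 7 under 0.05 before adjustment) and for 0.305% of 14101 genes, 0.241% as higher in H460 and 0.0638% as lower. SERPINB5 had the lowest p of the 7: its vector effect was higher in H460 by 0.64 (SE 0.218; limma unadjusted p = 0.0067, adjusted p = 0.251). A difference between the lines in how SERPINB5 went with the vector label was thus not established, and this test does not show that the lines are alike.

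**Figure D3:**
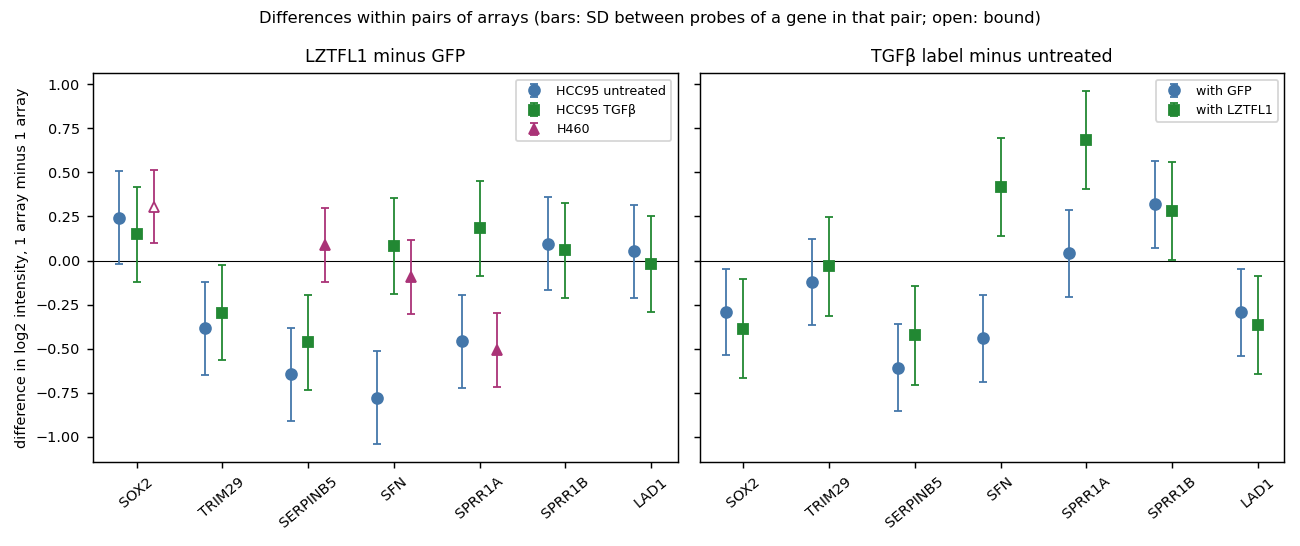
Log2 differences of each detected gene in single pairs of arrays (vertical axis, log2; genes along the horizontal axis), for LZTFL1 against GFP on the left and TGFβ against untreated on the right, with bars for the SD between probes of a gene and an open point for a bound. SERPINB5 lies below 0 in all 4 HCC95 pairs (-0.42 to -0.65), and SFN changes side between the TGFβ pairs (-0.44 and 0.42).

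SERPINB5 was the only one of the genes to span 1 or more on the log2 scale over the HCC95 arrays. Of 8487 genes detected on all 4 and named, those with the most similar centred profile were FHL2, a LIM domain cofactor (root mean square difference 0.0437), FAM174A (0.0439) and SMARCA5, a chromatin remodelling ATPase (0.0446). FHL2 read 10.70 with GFP, 10.15 with LZTFL1, 10.20 with GFP and TGFβ, and 9.71 with both. Likeness over 4 arrays is a description.

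SERPINB5 lies on chromosome 18 in a row of serpin genes, several of them made by squamous cells. They were examined after the values of SERPINB5 were known. SERPINB13, or headpin, an inhibitor of cathepsins in keratinocytes, read 9.96 with GFP, 8.89 with LZTFL1, 10.20 with GFP and TGFβ, and 8.57 with both, and was not detected in H460. It fell by 1.35 on the log2 scale with LZTFL1 (SE 0.151; limma adjusted p = 7.47e-07) and stood at -0.04 for the TGFβ label (SE 0.151; limma adjusted p = 0.912), where SERPINB5 was lower for both.

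SERPINB3, the squamous cell carcinoma antigen, was detected with GFP alone, at 5.60 untreated and 6.61 with TGFβ, and read 4.80 and 5.38 with LZTFL1. It entered the fit only through the GFP arrays, so no p is given. With undetected arrays set to their lowest detected level, its pairs stood at -0.27 and -0.92, which are bounds. SERPINB8 read 5.49 with GFP, 5.43 with LZTFL1, 5.77 with GFP and TGFβ, and 4.63 with LZTFL1 and TGFβ, where it was not detected. The lowest detected levels of these arrays were 5.33 to 5.70, so it lay near them in HCC95. SERPINB8 differed by -0.60 with LZTFL1 (SE 0.307; limma adjusted p = 0.256), mostly through the array where it was not detected. SERPINB4, SERPINB7, SERPINB10 and SERPINB12 were not detected on any array, and SERPINB11 was detected in H460 alone (9.24 and 9.12). SERPINB3 and SERPINB4 are near-identical copies, so their signals are uncertain.

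**Figure D4:**
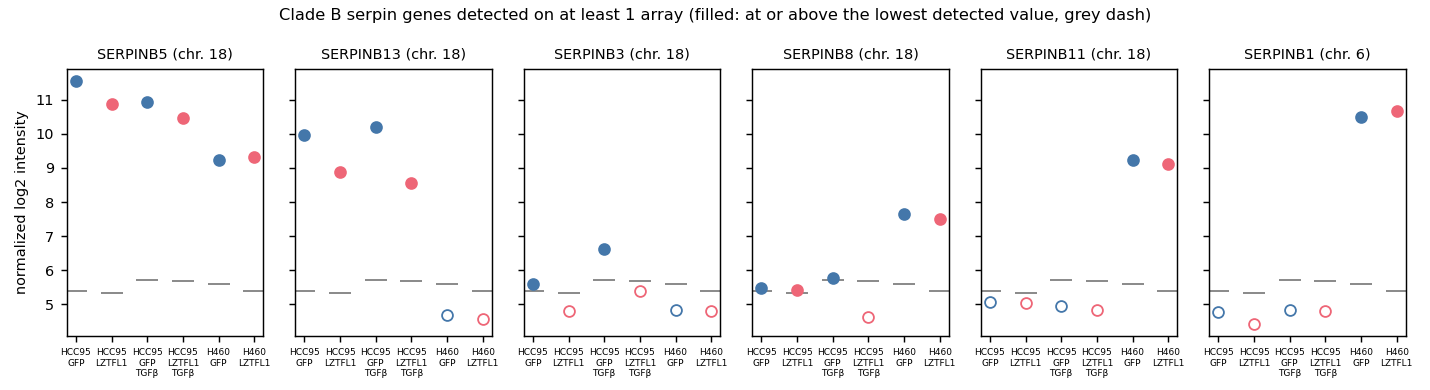
Normalized log2 intensity of the clade B serpin genes detected on at least 1 array (vertical axis, log2), on each of the 6 arrays, with open points for values below the lowest detected level. SERPINB5 is present in both lines, SERPINB13 in HCC95 alone (8.57 to 10.20) and SERPINB11 and SERPINB1 in H460 alone.

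Other genes of the squamous programme were counted from lists that leave out the 9 and were chosen with earlier results of these data known. Of 23 regulators of squamous epithelium, 20 were tested in HCC95, and 0 were higher and 2 lower with LZTFL1 (limma; the same background of 7.63% applies): KLF4, a factor of the suprabasal layers (-0.73), and BNC1, or basonuclin, of basal keratinocytes (-0.69). For the TGFβ label 5 were higher and 0 lower, against 3.42% and 2.76% of all genes. They were led by GRHL3 (0.93), a grainyhead factor of barrier formation, FOXE1 (0.53), HES1 (0.50) and NOTCH3 (0.50). The median of the list was -0.07 for the vector and 0.10 for the label, against 0.01 and -0.00 over all genes.

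Between lines, 15 of 19 tested regulators were lower in H460 and 2 were higher, against 28.1% and 25.1% of all genes. Regulators detected in HCC95 alone had to be lower, so the 15 of 19 is no support for a pattern. Among the 10 detected on all 4 untreated arrays 6 were lower and 2 higher, against 25.5% and 24.5% of all such genes. SOX15 was at least 45.3-fold lower, FOXE1 at least 11.5-fold, BNC1 at least 8.18-fold and OVOL2 at least 6.77-fold. NOTCH3 (2.08) and KLF4 (1.17) were the ones higher in H460, named after their values were seen. The squamous regulators were thus not all in step with SOX2.

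Of 30 genes of the cornified envelope and late differentiation, 18 were tested in HCC95. With LZTFL1, 3 were higher and 2 lower, against 3.74% and 3.89% of all genes. PI3, or elafin, an inhibitor of neutrophil elastase (0.75), LYPD3 (0.70) and CALML3 (0.39) were higher. KRTDAP was lower (-0.59), and CSTA, an inhibitor of cathepsins, was detected with GFP alone. For the TGFβ label 7 were higher and 1 lower, against 3.42% and 2.76% of all genes. KRTDAP (1.04) and SPRR2D (0.97) rose and CALML3 fell by 0.94 on the log2 scale, and CRNN was detected on the arrays labelled TGFβ alone. CSTA and CRNN entered the test only through the arrays where they are high and so had to differ. Among the 15 genes detected on all 4 arrays, 3 were higher and 1 lower for the vector, and 6 higher and 1 lower for the label. In a fit over all 10800 such genes, 495 were higher and 476 lower for the vector, and 452 and 364 for the label. The 6 higher for the label include SPRR2A, SPRR2D, SPRR2F and SPRR3, paralogs whose probe sequences were not examined, so they may share signal. SPRR2D and SPRR3 are paralogs of SPRR1A and SPRR1B, which themselves stood at 0.36 and 0.30 and did not pass. The list's median was 0.29 for the vector and 0.49 for the label.

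Between lines, 13 of 15 tested genes of this list were lower in H460 and 1 higher, against 28.1% and 25.1% of all genes. Those detected in HCC95 alone had to be lower, so the 13 of 15 is no support for a pattern. The 13 include SPRR2A, SPRR2D, SPRR2E, SPRR2F and SPRR3, paralogs that may share signal. Of the 3 detected on all 4 untreated arrays 2 were lower and 1 higher, against 25.5% and 24.5% of all such genes. CALML3 was at least 115-fold lower, PI3 at least 71.6-fold, SPRR3 at least 12.8-fold and LYPD3 at least 7.21-fold.

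Of 26 squamous serpins and epithelial genes linked to p63, 16 were tested in HCC95. Against 3.74% and 3.89% of all genes, 0 were higher and 4 lower for LZTFL1. Beside SERPINB13 and SERPINB3, these were DAPL1, like SERPINB3 detected with GFP alone and entered the same way, and HAS3, a hyaluronan synthase (-0.43). SERPINB3 and DAPL1 thus had to be lower, which leaves 2 lower and 0 higher among the 13 genes detected on all 4 arrays. In a fit over all 10800 such genes, 476 were lower and 495 higher. For the TGFβ label 3 were higher and 0 lower: IL1RN, the interleukin-1 receptor antagonist (1.26), DAPL1 and HAS3 (0.72), of which HAS3 alone was detected on all 4 arrays. Over all genes 3.42% were higher and 2.76% lower for the label, and with median scaling the list had 1 higher and 1 lower. In H460, 11 of 14 were lower and 2 higher, against 28.1% and 25.1% of all genes. Genes detected in a single line had to differ, so these counts are no support for a pattern. Of the 4 detected on all 4 untreated arrays 2 were lower and 1 higher, against 25.5% and 24.5% of all such genes. HAS3 was at least 41.3-fold lower, FGFR3 at least 39.1-fold and MPZL2 at least 34.0-fold, while SERPINB1 was at least 37.4-fold higher (10.50 and 10.66, not detected in HCC95).

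The other 14-3-3 proteins, relatives of SFN found in all tissues, were tested beside it. Of 6, 1 was higher in H460 (YWHAH, 0.52) and 2 lower (YWHAZ, -0.66, and YWHAG, -0.45), where SFN differed by -2.99. Over all genes 25.1% were higher in H460 and 28.1% lower. In HCC95, YWHAZ was lower with LZTFL1 (-0.33, limma adjusted p = 0.0498) and YWHAB for the TGFβ label (-0.42), where 3.89% and 2.76% of all genes were lower. Between the H460 arrays no gene of these lists that was detected on either array differed by 2-fold. The lists' calls in HCC95 depend on the settings: of 227 recomputed HCC95 values of genes named from the lists, 92 lost their call and 0 changed sign, against 3 of 159 lost between lines.

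SOX2 and TP63 share a chromosome arm, and their neighbours on it were examined by order along GRCh38.p14. Of 22 listed genes of the long arm near them, 20 were tested between lines. Of these, 19 were lower in H460 and 0 higher, against 28.1% and 25.1% of all genes. Among the 17 detected on all 4 untreated arrays, 16 were lower, MFN1 did not pass, and the median log2 difference was -1.37. Of all such genes 25.5% were lower and 24.5% higher, with a median of 0.01. EIF4A2, a translation initiation factor, was 5.86-fold lower, TBL1XR1 3.92-fold, DCUN1D1 3.50-fold and FXR1, an RNA-binding protein, 3.48-fold.

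The same was then counted for neighbours taken by position alone, a count chosen after the data were seen, over genes detected on all 4 untreated arrays. Of the 20 nearest to SOX2, 10 on each side, 17 were lower in H460 (85%) and 0 higher, with a median of -1.25. Of the 20 nearest to TP63, 13 were lower (65%) and 3 higher, P3H2, CLDN1 and PLAAT1 (4.08, 1.34 and 0.89), with a median of -1.13. Of the other 414 genes of chromosome 3, 93 were lower (22.5%) and 148 higher, with a median of 0.27.

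Cut into 5 successive stretches of nearly equal gene number, the chromosome had medians of 0.37, 0.34, 0.44, -0.08 and -1.24. The last, 91 genes from MFSD1 to RPL35A, holds both SOX2 and TP63, and 67 of its genes were lower in H460 and 7 higher. Over all chromosomes, 25.5% of genes detected on all 4 untreated arrays were lower and 24.5% higher. Neighbouring genes are not independent samples, so no test was made. With LZTFL1 in HCC95, 0 of the 20 listed neighbours passed (limma), against 7.63% of 12735 genes in either direction, 3.89% as lower. Before adjustment, 22% of the 12735 genes were under 0.05. The neighbours had a median of -0.18, against 0.01 over all genes. Over genes detected on every HCC95 array 2 of 19 neighbours were lower, and with every probe a feature 1 of 20. For the TGFβ label 1 of the 20 neighbours was higher (ABCC5, 0.89) and 2 lower (TFRC, -0.63, and SKIL), against 3.42% and 2.76% of all genes. SKIL was detected on the untreated HCC95 arrays alone, entered the test only through them and so had to be lower.

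**Figure D5:**
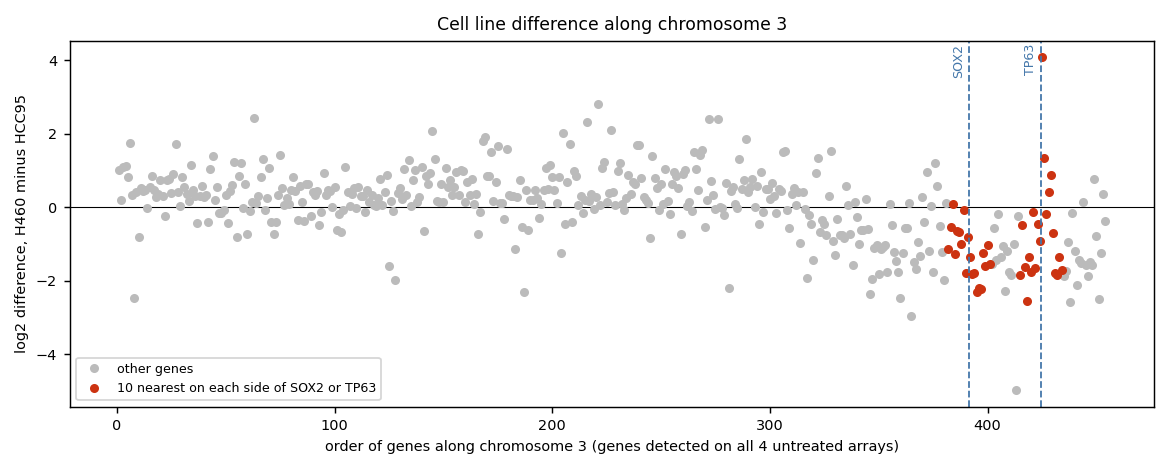
Log2 difference of H460 against HCC95 (vertical axis, log2) for each chromosome 3 gene detected on all 4 untreated arrays, in gene order along the chromosome (horizontal axis, rank), with the places of SOX2 and TP63 marked. Most genes of the last stretch, 76 of 91 with a median of -1.24, lie below 0, and the genes nearest SOX2 and TP63 are coloured. Over all chromosomes, 49.2% of genes detected on all 4 untreated arrays lie below 0.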

How the data were processed

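Expression was measured on 6 Illumina beadchips, 1 per group, with groups taken from the labels. The authors deposited signal intensity per probe, not normalized, with a detection p-value for each (steps of 1 in 770), and a second table of processed intensity on a linear scale (median 13.1 in every column). GenomeStudio 2011.1 made them, per the submitters' processing notes; its settings for background and normalization are not stated there, and the centring of the processed intensities stays unknown.

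From the signals, limma 3.58.1 (R 4.3.3) was used: neqc estimated background from the detection p-values, applied normexp and an offset of 16, which understates folds of dim genes, quantile-normalized the arrays and took log2. Of 47323 probes, 30113 had 1 symbol in the platform annotation, 8 several and 17202 none; 30074 were matched by gene identifier to current symbols. The probe with the highest mean stood for each gene.

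Genes detected (p under 0.01) on at least 2 fitted arrays entered additive limma fits (eBayes with trend, Benjamini-Hochberg at 0.05 over all genes): vector and TGFβ label over the HCC95 arrays, line and vector over the untreated arrays, and vector by line over all 6. Each left 1 residual degree of freedom, and eBayes took most of each variance from other genes. Nothing says cultures were replicated, so p-values are not the spread between cultures, and the number of arrays limits the precision. Single pairs have no p and are set against the spread between probes of a gene. The fits were tested on simulated data.

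The members and gene lists were chosen with earlier results of these data known. All 9 members are named; from each list, up to 4 called genes with the largest difference per comparison, and for members spanning at least 1 (log2) in HCC95, the 3 genes of nearest profile. Alternatives were another scaling, offset, background, probe rule, filter and model, and the processed intensities. Motifs and sequences were read with Python 3.11.15.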

Additional observations from a re-analysis of the deposited data

Results flagged for a closer look

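SFN stood out because its TGFβ pairs ran opposite ways in HCC95: -0.44 on the log2 scale with GFP and 0.42 with LZTFL1, both beyond the spread between probes of a gene. The difference between the pairs could not be tested over the HCC95 arrays alone. With the H460 arrays sharing the vector effect of untreated HCC95, it was 0.52 and did not pass (SE 0.305; limma adjusted p = 0.998).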

How the results depend on the processing

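No paired analysis was possible because every group has replicate 1 only. Leaving out an array removes a group, so it was not run. Of 257 recomputed values of the squamous genes, 249 kept their side of the threshold, of which 244 also kept their sign and 5, all uncalled, did not. Another 6 lost a call, 1 gained one and 1 moved, and no called value changed sign. In the LZTFL1 comparison in HCC95 the number of squamous genes called went from 1 to 0 with median scaling (SERPINB5 limma adjusted p = 0.0989), without the trend (0.145) and without the label term (0.446); in each, 1 gene had an unadjusted p under 0.05. For the TGFβ label it went from 1 to 0 with averaged probes (SERPINB5 limma adjusted p = 0.0541; 3 genes under 0.05 unadjusted), without the trend (0.175; 1 gene) and without the vector term (0.625; 1 gene), and to 2 over genes detected on every array, with LAD1 (limma adjusted p = 0.0490). Between lines it went from 7 to 3 over genes detected on every array, where 3 were tested. LAD1 differed between lines by -1.83 with averaged probes. The H460 pair of SPRR1A moved to -0.27 without background correction. The cause was not tested.

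The 5 signs that changed were those of SPRR1B for the vector (-0.03) and SFN in the H460 pair (0.08), both with median scaling, LAD1 for the vector (-0.10) and TRIM29 for the label (0.07), both with averaged probes, and SOX2 for the vector by line term (-0.03) without background correction. Median scaling moved the median of all genes by -0.20 for the TGFβ label, -0.18 between lines and 0.19 for the vector by line term. It turned the split of genes higher and lower from 476 and 496 to 110 and 290 for the vector, from 435 and 351 to 121 and 746 for the label, and from 3468 and 3877 to 2349 and 4261 between lines. SERPINB5 stood at -0.69 for the label there (limma adjusted p = 0.0108). The genes called for the vector numbered 972, and 400 with median scaling, 582 without background correction, 307 with averaged probes, 86 without the trend and 5 without the label term. For the label they numbered 786, and 491, 258, 55 and 9 under the last 4 of these. For the vector by line term they numbered 43, and 8 with an offset of 50, 17 without background correction, 3 with averaged probes, 0 without the trend (limma; 1254 under 0.05 unadjusted), 22 over genes detected on every array and 107 without a filter. Under median scaling the TGFβ label called 1 regulator, 4 cornified envelope genes and 1 gene of the serpin list as higher, against 5, 7 and 3, and without the trend or the vector term all calls in these 3 lists were lost.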
